A study of Homo sapiens with 25 samples.

Results

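The chromatin of human pharyngeal foregut endoderm (hPFE) was described by which of 3 histone marks, H3K4me2, H3K27ac and H3K27me3, lay together at the same gene ends and distal regions. Of 25 samples in the series, 21 have a peak list, and 5 of these are hPFE libraries: 2 of H3K27ac, 2 of H3K27me3 and 1 of H3K4me2. A mark counted as present where every library of that mark had at least 1 bp of a peak, so that H3K4me2 rests on a single library. Windows of 1 kb either side of both ends of 20037 protein-coding genes were classed, 40074 ends in all, and a gene carried a mark if 1 or both of its ends did. Of 89023 merged H3K4me2 regions, 59129 lay outside the window of every annotated gene end of any gene type and were classed as distal regions.

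The cells were derived in culture from H1, an established line of human embryonic stem cells; the series follows this line through 4 stages, of which hPFE is the last, by way of definitive and anterior foregut endoderm. All 5 libraries come from this 1 line without any genetic change given in the labels, and per the names of the deposited lists each was called against the same hPFE input. The labels do not say whether the replicates are separate cultures. No other stage was used here, so that nothing below is a change over time.

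Pharyngeal endoderm lines the embryonic throat and forms the pouches from which thymus, parathyroid and other glands arise. Acetylation of lysine 27 of histone H3 (H3K27ac) is found at active promoters and enhancers, and trimethylation of the same lysine (H3K27me3) is laid down by Polycomb repressive complex at silent developmental genes. The same lysine cannot carry both groups on 1 histone tail. H3K4me2 marks promoters and enhancers that are accessible, and its presence together with H3K27me3 at promoters of developmental regulators is a form of what is called bivalent chromatin.

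The deposited lists held 81170 and 111256 H3K27ac peaks over 27.1 and 31.9 Mb, 76441 and 66283 H3K27me3 peaks over 22.9 and 22.2 Mb, and 89059 H3K4me2 peaks over 36.1 Mb. The lists give no read totals; sequencing depth is therefore unknown, and a mark may be there without a called peak. The Jaccard index, the base pairs shared by 2 lists over the base pairs in either, was 0.256 for the H3K27ac pair and 0.303 for the H3K27me3 pair. It was 0.191 and 0.142 between each H3K27ac list and H3K4me2, 0.0307 and 0.0419 between each H3K27me3 list and H3K4me2, and 0.000949 to 0.00173 between H3K27ac and H3K27me3 lists. Lists of 1 mark averaged 0.28 and lists of different marks 0.0514, a difference of 0.228 that was the largest of the 15 ways to split 5 lists into 2, 2 and 1 (one-sided exact permutation test, p = 0.0667, the smallest this design allows).

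Acetylated genes were the largest class, followed by unmarked genes. H3K4me2 with H3K27ac and without H3K27me3 was found at 9623 genes (48.0%), H3K4me2 with H3K27me3 and without H3K27ac at 1820 genes (9.08%), and all 3 marks at 226 genes (1.13%). H3K4me2 stood alone at 2384 genes (11.9%), H3K27me3 alone at 461 genes (2.3%) and H3K27ac alone at 139 genes (0.694%), while 5383 genes (26.9%) had none. The remaining gene had H3K27ac and H3K27me3 without H3K4me2. With 1 library of H3K27ac and 1 of H3K27me3 in place of both, the 4 possible pairings gave 9857 to 10014 genes with H3K4me2 and H3K27ac and 1754 to 2030 with H3K4me2 and H3K27me3, but 623 to 780 with all 3 marks, 1386 to 1662 with H3K4me2 alone, 728 to 831 with H3K27me3 alone and 292 to 509 with H3K27ac alone. The first 2 of these classes were therefore close to their single-library values, and the other 4 were not.

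**Figure D1:**
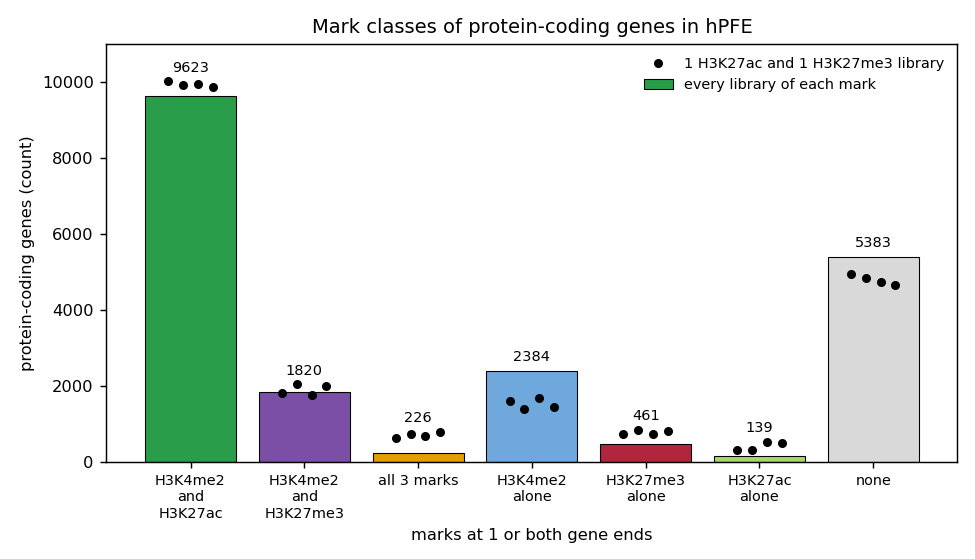
Number of protein-coding genes (vertical axis) by the marks at 1 or both of their ends (horizontal axis) in hPFE. Bars and printed numbers require every library of a mark, and each of the 4 points per class uses 1 H3K27ac and 1 H3K27me3 library; the points lie near the bar for H3K4me2 and H3K27ac (9857 to 10014 against 9623) and above it for all 3 marks (623 to 780 against 226).

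Strand and promoter sequence were available for 15842 of the 20037 genes from a RefSeq table (GRCh38.p14), which made it possible to set the start end of a gene beside its far end. Promoters of 6 genes are shown, 1 for each class named here at the start end, so that a reader can see the CpG content discussed next, as the 250 bases before the start in the direction of transcription, with every CpG dinucleotide in capitals. They are ISL1, a LIM homeodomain factor of pharyngeal endoderm, with H3K4me2 and H3K27ac (chr5:51383198-51383447, plus strand); TBX1, the T-box factor of the pharyngeal pouches, with H3K4me2 and H3K27me3 (chr22:19756453-19756702, plus strand); and CYP26A1, which breaks down retinoic acid, with all 3 marks (chr10:93073225-93073474, plus strand). The others are PAX9, a paired-box factor of the pouches, with H3K4me2 alone (chr14:36657318-36657567, plus strand), GCM2, the parathyroid regulator, with H3K27me3 alone (chr6:10882042-10882291, minus strand) and PTH, the parathyroid hormone gene, with none (chr11:13496182-13496431, minus strand).
ISL1: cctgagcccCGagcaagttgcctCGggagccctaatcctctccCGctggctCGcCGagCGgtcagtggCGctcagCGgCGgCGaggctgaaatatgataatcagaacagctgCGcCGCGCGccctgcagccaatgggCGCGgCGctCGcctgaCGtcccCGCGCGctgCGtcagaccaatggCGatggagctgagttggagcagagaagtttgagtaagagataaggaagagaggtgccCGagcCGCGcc
TBX1: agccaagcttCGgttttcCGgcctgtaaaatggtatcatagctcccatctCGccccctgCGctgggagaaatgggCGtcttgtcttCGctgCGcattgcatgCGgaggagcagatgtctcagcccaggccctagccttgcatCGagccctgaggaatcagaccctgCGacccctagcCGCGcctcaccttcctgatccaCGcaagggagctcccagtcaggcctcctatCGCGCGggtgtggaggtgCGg
CYP26A1: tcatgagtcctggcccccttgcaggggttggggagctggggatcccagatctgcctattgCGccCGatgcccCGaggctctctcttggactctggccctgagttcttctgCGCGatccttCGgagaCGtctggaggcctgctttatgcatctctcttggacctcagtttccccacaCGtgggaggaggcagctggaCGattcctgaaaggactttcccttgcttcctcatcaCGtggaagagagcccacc
PAX9: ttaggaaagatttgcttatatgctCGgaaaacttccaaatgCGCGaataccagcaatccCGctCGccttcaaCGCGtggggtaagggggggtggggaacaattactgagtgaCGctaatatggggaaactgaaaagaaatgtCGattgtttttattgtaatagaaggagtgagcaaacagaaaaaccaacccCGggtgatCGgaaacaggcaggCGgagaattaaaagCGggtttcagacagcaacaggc
GCM2: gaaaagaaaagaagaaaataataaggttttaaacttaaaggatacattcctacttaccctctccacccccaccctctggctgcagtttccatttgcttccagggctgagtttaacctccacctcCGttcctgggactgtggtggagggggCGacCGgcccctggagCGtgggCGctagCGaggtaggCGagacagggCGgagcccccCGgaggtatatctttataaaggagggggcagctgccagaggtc
PTH: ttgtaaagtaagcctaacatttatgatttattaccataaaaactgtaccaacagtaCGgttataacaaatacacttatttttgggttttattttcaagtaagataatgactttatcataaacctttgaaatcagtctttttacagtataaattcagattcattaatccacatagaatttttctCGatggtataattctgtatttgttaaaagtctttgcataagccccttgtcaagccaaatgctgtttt

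These stretches held 27 CpG in ISL1, 17 in TBX1, 10 in CYP26A1, 13 in PAX9, 9 in GCM2 and 2 in PTH. Over whole classes of start ends the same order of marked against unmarked promoters was seen. The median CpG count in the 250 bases was 22 for H3K4me2 with H3K27ac (7944 promoters), 22 for H3K4me2 with H3K27me3 (1287), 25 for all 3 marks (64), 19 for H3K4me2 alone (1769), 15 for H3K27me3 alone (328) and 17 for H3K27ac alone (96), against 4 for promoters with none (4353) and 17 for all 15842. A count of 10 or more CpG was reached by 89.7% of the promoters with H3K4me2 and H3K27ac and 84.8% of those with H3K4me2 and H3K27me3, against 22.4% of those with none and 68.6% of all. CpG content thus differed little between acetylated and Polycomb-type promoters and much between marked and unmarked ones.

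Short motifs were searched on both strands of the same 250 bases. The TATA box letters TATAAA were found in 4.98% of promoters with H3K4me2 and H3K27ac, 7.23% of those with H3K4me2 and H3K27me3 and 12.8% of those with H3K27me3 alone, against 18.6% of those with none and 9.23% of all promoters. Of the promoters printed, GCM2 and PTH held these letters. The GC box letters GGGCGG, which overlap CpG, were in 68.8% of promoters with H3K4me2 and H3K27ac and 70.8% of those with H3K4me2 and H3K27me3, against 24.4% of those with none and 56.0% of all. The E-box letters CACGTG were in 9.18% and 8.31% of the same 2 marked classes, against 5.15% with none and 7.84% of all; the CYP26A1 stretch held these letters 2 times. The forkhead-type letters TGTTTAC were in 1.79% of each of these marked classes, against 3.54% with none and 2.25% of all. Base content differed too. The median GC content was 64.8% with H3K4me2 and H3K27ac, 68.4% with H3K4me2 and H3K27me3 and 64.4% with H3K27me3 alone. It was 51.2% with none and 62.4% in all, and its part in the motif shares was not tested. A match is a description of the letters and not of binding. The printed start coincided with the annotated gene end for 83.8% of the 15842 genes.

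**Figure D2:**
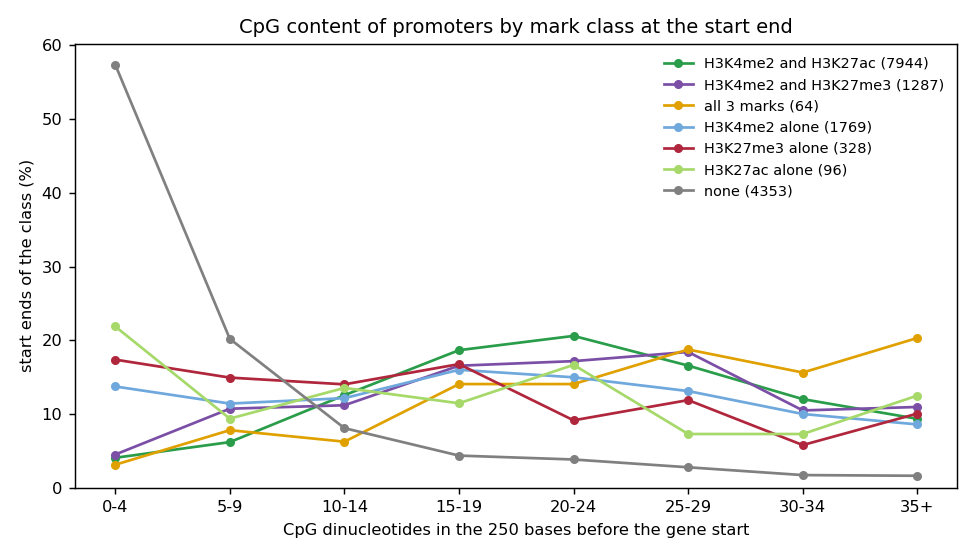
Share of start ends in each mark class (vertical axis, percent of the class, with its number of promoters in the legend) by the number of CpG dinucleotides in the 250 bases before the gene start (horizontal axis). Promoters with none of the marks pile up at the left (median 4), and the acetylated and the H3K27me3-marked H3K4me2 promoters run close together (median 22 each).

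The marks were concentrated at the starts of genes. H3K4me2 was present at 69.8% of start ends against 11.3% of far ends, H3K27ac at 51.2% against 5.3%, and H3K27me3 at 10.6% against 3.03% (15842 genes with a known strand). Of marked genes, 16.8% had H3K27me3 at both ends, 12.8% had H3K4me2 and 7.04% had H3K27ac at both. H3K4me2 was found at 97.1% of the 10692 ends with H3K27ac, against 18.6% of ends without it, and at 70.4% of the 2929 ends with H3K27me3, against 37.1% of ends without it.

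H3K27ac and H3K27me3 seldom shared an end. Among ends with H3K4me2, H3K27ac was present at 93 of 2062 ends with H3K27me3 (4.51%) and at 10289 of 13783 ends without it (74.6%). With single libraries the shares were 11.4 to 15.9% with H3K27me3, against 80.0 to 82.9% without it, so that the size of the low share depended on how many libraries had to agree and the direction did not. Of the base pairs in both libraries of a mark, 12.0 Mb of H3K27ac and 10.5 Mb of H3K27me3, 2.42 kb were in common. H3K4me2 covered 6.02 Mb of the H3K27ac base pairs and 1.54 Mb of the H3K27me3 base pairs.

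The 226 genes with all 3 marks were of 2 kinds. At 93 genes the marks met at 1 end, at 132 genes H3K27ac and H3K27me3 lay only at different ends, and the remaining gene had them at 1 end with H3K4me2 at the other. Of the 93 ends with all 3 marks, 5 had base pairs covered by both marks in all 4 libraries, with a median of 69 bp and at most 297 bp. At 74 ends the marks lay side by side without overlap, with a median gap of 853 bp, and at 14 ends at least 1 mark had no base pair common to its 2 libraries. The 10 genes of best rank in this class were all of the second kind. NMNAT1, an enzyme of NAD synthesis, had H3K4me2 and H3K27ac at 1 end (H3K27ac fold 9.45 and 10.9) and H3K4me2 and H3K27me3 at the other (fold 6.14 and 6.85). MPV17, a mitochondrial inner membrane protein, had H3K27ac at 1 end (fold 9.08 and 9.96) and H3K27me3 at the other (fold 5.12 and 6.03), as did MAP2K7, DDX31, SMG6 and MYO3A. Fold here and below is the deposited fold enrichment over input of the strongest peak at a gene end, the authors' own value, given for replicate 1 and then replicate 2 and not comparable between lists.

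The strength of the peaks within each list followed the classes. In genes with H3K4me2 and H3K27ac, the median H3K27ac fold was 6.54 and 6.0; in genes with all 3 marks it was 4.94 and 4.67. The median H3K27me3 fold was 4.72 and 6.13 in genes with H3K4me2 and H3K27me3, and 3.91 and 5.14 in genes with all 3 marks. Genes classed as H3K4me2 alone could have H3K27ac peaks, but not of both libraries at the same end. The median fold of these peaks was 3.82 in the 670 genes with a replicate 1 peak and 3.34 in the 619 genes with a replicate 2 peak. In each of the 4 lists, the median of genes with all 3 marks was thus below that of genes with H3K4me2 and the same 1 modification of lysine 27. Genes with H3K27ac alone had lower H3K27ac medians still, 3.94 and 3.7.

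Lists of genes with known roles, whose members were chosen with earlier results of these data known, differed in class. Of 24 housekeeping genes, 23 had H3K4me2 and H3K27ac without H3K27me3 (95.8%, against 48.0% of all protein-coding genes), among them ACTB, the cytoskeletal actin (H3K27ac fold 9.45 and 19.4). The remaining one, HPRT1, a purine salvage enzyme, had H3K4me2 alone. Of 26 neural regulators, 23 had H3K4me2 and H3K27me3 (88.5%, against 9.08% of all) and every one had H3K27me3. PAX6, a regulator of eye and brain, had H3K27me3 at fold 6.67 and 10.4 with H3K4me2 at 4.4, and NEUROG2, a proneural factor, had 8.89 and 10.2 with 7.81. NEUROG1 and LHX5 had H3K27me3 alone, and OTX1, a forebrain homeobox gene, had all 3 marks at its start end (H3K27ac 3.81 and 3.41, H3K27me3 7.2 and 11.4).

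The pharyngeal endoderm list was split between the acetylated and the Polycomb-type class. Of its 33 genes, 13 had H3K4me2 with H3K27ac (39.4%, against 48.0% of all), 11 had H3K4me2 with H3K27me3 (33.3%, against 9.08%), 3 had all 3 marks (9.09%, against 1.13%), 4 had H3K4me2 alone, 1 had H3K27me3 alone and 1 had none. The markers of the labelled cell type were therefore not all in an active-type class; histone marks do not measure expression.

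The acetylated pharyngeal genes included ISL1, SIX4, FOXE1, NKX2-6, SOX2, MEIS1, MEIS2, HOXA2, HOXB2, SHH, TSHZ1 and FOXP2. H3K27ac at ISL1 had a fold of 7.15 and 5.8 with H3K4me2 at 6.12. MEIS2, a TALE homeodomain cofactor of HOX proteins, had 16.5 and 7.41, and SIX4, a homeobox gene, had 15.4 and 7.72. FOXE1, a forkhead factor of thyroid and palate, had 12.1 and 3.94, with an H3K27me3 peak in replicate 2 alone (3.06). SHH, the Sonic hedgehog ligand, had 8.77 and 4.68, and SOX2, which is also a pluripotency factor, had 7.45 and 3.95. The class itself requires a peak in both H3K27ac libraries. The lowest fold in these 6 genes was 3.94, but HOXA2, of the same class, had 9.36 and 2.71.

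The pharyngeal genes with H3K4me2 and H3K27me3 included TBX1, PAX1, NKX2-3, TBX2, HOXA3, HOXB3, FGF8, PITX1 and DLX5. TBX1 had H3K27me3 at fold 3.93 and 8.72 with H3K4me2 at 3.3, and no H3K27ac peak in either library. FGF8, a signal of the pharyngeal ectoderm and endoderm, had 4.53 and 7.43 with H3K4me2 at 8.81. DLX5, a homeobox gene of arch mesenchyme, had 7.53 and 10.7 with H3K4me2 at 9.36. Of these 9 genes, PAX1 had the weakest H3K27me3 in both libraries (2.67 and 3.11) and an H3K27ac peak of 8.84 in replicate 1 alone.

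NKX2-5 and TBX3 carried all 3 marks. NKX2-5, the cardiac homeobox gene also active in pharyngeal endoderm, had H3K27ac at 4.25 and 3.37 and H3K27me3 at 6.13 and 7.04. TBX3, a T-box factor, had lower H3K27me3 than NKX2-5 in both libraries, at 2.46 and 4.05, with H3K27ac at 5.23 and 4.1. HOXD3 had H3K27me3 alone (9.07 and 9.36). EYA1, a transcriptional coactivator with phosphatase activity, had none by the rule, with an H3K27ac peak of 2.36 in replicate 2 alone.

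**Figure D3:**
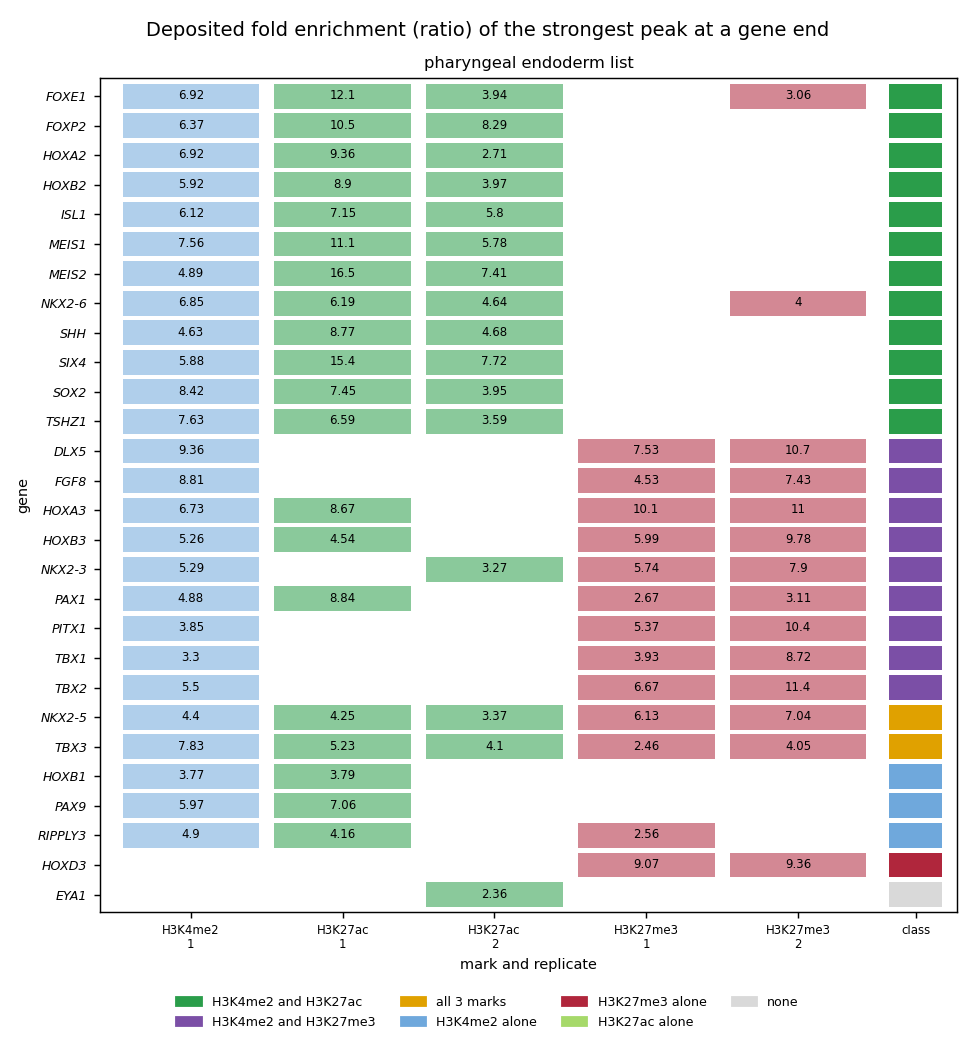
Deposited fold enrichment (ratio over input) of the strongest peak at a gene end for each of the 5 hPFE libraries (columns) in 28 of the 33 pharyngeal genes (rows, ordered by class); an empty cell has no peak and the last column gives the class. HOXA2 and HOXB2 have H3K27ac in both libraries, and PAX1, PAX9, HOXA3 and HOXB3 have H3K27ac in replicate 1 alone; numbers are to be read within a column.

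Most HOX genes were in a class with H3K27me3. HOX genes lie in 4 clusters whose order along the chromosome matches the order of the body regions in which they act. Of 39 HOX genes, 25 had H3K4me2 and H3K27me3 (64.1%, against 9.08% of all), 10 had H3K27me3 alone (25.6%, against 2.3%), 3 had H3K4me2 and H3K27ac and 1 had H3K4me2 alone. H3K27me3 peaks were in both libraries at 35 of the 39, and HOXA2, HOXB1 and HOXB2 had one in neither. H3K27ac was present in both libraries at HOXA2 (9.36 and 2.71) and HOXB2 (8.9 and 3.97). At HOXA2 the acetylated end was the far end. HOXB1 had an H3K27ac peak in replicate 1 alone (3.79). HOXA3 and HOXB3, of the third paralogue group, had H3K27me3 in both libraries (10.1 and 11.0, and 5.99 and 9.78) and H3K27ac in replicate 1 alone (8.67 and 4.54). At the 33 other HOX genes, among them all those of clusters C and D, no H3K27ac peak was found in either library. HOX genes are close together, and 1 peak can mark the ends of more than 1 gene.

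Genes of the derivatives of the pharyngeal pouches were mostly outside the acetylated class. Of 24 thymus, parathyroid and thyroid genes, 2 had H3K4me2 and H3K27ac (8.33%, against 48.0% of all), 8 had H3K4me2 and H3K27me3, 1 had all 3 marks, 2 had H3K4me2 alone, 3 had H3K27me3 alone and 8 had none (33.3%, against 26.9%). FOXE1 and AIRE were the acetylated ones, AIRE weakly (2.68 and 2.95) and away from its start end. NKX2-1, the regulator of thyroid and lung, had H3K27me3 at 9.39 and 9.79 with H3K4me2 at 5.46, and HHEX had 6.56 and 9.77 with 6.02. PAX8 of the thyroid and GCM2 of the parathyroid had H3K27me3 without H3K4me2, at 8.43 and 7.56, and at 7.42 and 7.71. FOXN1, the master factor of thymic epithelium, the thymoproteasome gene PSMB11 and the chemokine genes CCL21 and CCL25 had no peak of any mark at their gene ends in any of the 5 libraries. Of the distal H3K4me2 regions nearest to these genes, H3K27ac was at 2 of 3 for FOXN1 and 1 of 1 for CCL25, and H3K27me3 at 1 of 2 for CCL21.

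Genes of neighbouring endoderm and of other germ layers were rarely acetylated. None of 22 liver, pancreas and intestine genes had H3K27ac in both libraries, 8 had H3K4me2 and H3K27me3 (36.4%, against 9.08% of all) and 11 had none; PDX1 of the pancreas had H3K27me3 at 8.63 and 8.01 and CDX2 of the intestine at 9.87 and 10.7, while ALB and INS had none. Of 20 lung, oesophagus and stomach genes, 1 was acetylated without H3K27me3 (ID2, 13.4 and 4.52; 5.0%, against 48.0% of all) and 9 had none, where 26.9% of all did. Of 27 mesoderm, heart, blood and endothelium genes, 1 was acetylated (TNNT2, cardiac troponin T, 5.55 and 5.03), 8 had H3K4me2 and H3K27me3 (29.6%, against 9.08% of all) and 12 had none (44.4%, against 26.9%). Of 24 neural crest and mesenchyme genes, 2 were acetylated without H3K27me3 (FOXC1 and CDH2), 2 had all 3 marks, 12 had H3K4me2 and H3K27me3 and 4 had H3K27me3 alone. VIM, vimentin, had all 3 marks at its start end, with H3K27ac at 4.83 and 3.85 and H3K27me3 at 3.75 and 3.16.

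In the lists of earlier stages the share with H3K4me2 and H3K27ac was below that of all genes, a description without a test. Of 21 pluripotency genes found in the gene table, 4 had H3K4me2 and H3K27ac (SOX2, LIN28A, SALL4 and DNMT3B; 19.0%, against 48.0% of all), 5 had H3K4me2 and H3K27me3 (23.8%, against 9.08%) and 7 had none (33.3%, near the 26.9% of all). POU5F1, the factor OCT4, had no peak at its gene ends in any list, and NANOG had H3K27ac alone (3.21 and 1.99), away from its start end. Of 12 primitive streak genes, 8 had H3K4me2 and H3K27me3 (66.7%, against 9.08% of all), with H3K27me3 at 7.38 and 10.0 in TBXT, the brachyury gene. Of 21 definitive endoderm genes, 8 had H3K4me2 and H3K27me3 (38.1%, against 9.08% of all) and 4 had H3K4me2 and H3K27ac (19.0%, against 48.0%). FOXA1, a pioneer factor of endoderm, was acetylated (9.37 and 8.83), FOXA2 had all 3 marks with weak H3K27me3 (2.22 and 2.95) and H3K27ac of 9.79 and 2.03, and SOX17 and GATA4 had H3K27me3 alone (9.36 and 8.37, and 5.89 and 8.43).

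Of 22 epithelial genes, 16 had H3K4me2 and H3K27ac (72.7%, against 48.0% of all) and 1 had H3K4me2 and H3K27me3 (OVOL1). CLDN6, a tight-junction claudin, had H3K27ac at 15.0 and 7.14, GRHL2, a grainyhead factor of epithelia, at 13.8 and 6.86, and CDH1, the epithelial cadherin, at 6.25 and 3.4.

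Of 31 signalling ligand genes, 4 had H3K4me2 and H3K27ac (12.9%, against 48.0% of all) and 16 had H3K4me2 and H3K27me3 (51.6%, against 9.08%). Of 32 receptor genes, 24 had H3K4me2 and H3K27ac, where 48.0% of all genes did, and 1 had H3K4me2 and H3K27me3 (3.12%, against 9.08%). The acetylated ligands were SHH, BMP5 (3.91 and 3.14), BMP7 (5.25 and 2.98) and JAG1, a Notch ligand (10.6 and 8.29). The receptor with H3K4me2 and H3K27me3 was FZD10, a Frizzled receptor for WNT (8.45 and 10.4); 8 of the other 9 Frizzled genes were acetylated and FZD9 had H3K4me2 alone. Of 36 antagonists and feedback targets, 19 had H3K4me2 and H3K27ac (52.8%, near the 48.0% of all) and 7 had H3K4me2 and H3K27me3 (19.4%, against 9.08%). Acetylated ones included GLI1, a hedgehog target (7.98 and 5.36), SPRY1 and DUSP6, feedback inhibitors of FGF signalling (11.5 and 8.78, and 10.5 and 9.53), and ID1, a BMP target (13.5 and 12.0). SP5 and the WNT antagonists SFRP5 and WIF1 had H3K4me2 and H3K27me3.

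Retinoic acid, made from vitamin A, patterns the pharynx along its length. Of 21 genes of its metabolism and signalling, 7 had H3K4me2 and H3K27ac (33.3%, against 48.0% of all), 6 had H3K4me2 and H3K27me3 (28.6%, against 9.08%) and 3 had all 3 marks (14.3%, against 1.13% of all). Enzymes and carriers that handle retinoids, RDH10 (6.31 and 13.8), DHRS3 (10.6 and 3.96) and CRABP2 (8.95 and 3.05), were acetylated. ALDH1A2 and ALDH1A3, which make retinoic acid, and CYP26B1 and CYP26C1, which break it down, had H3K4me2 and H3K27me3, with 5.14 and 9.35 in ALDH1A2. CYP26A1 had all 3 marks at its start end, with weak H3K27ac (3.88 and 2.03) and H3K27me3 (2.87 and 4.74). Of the nuclear receptors, RXRA and NR2F2 were acetylated, RARA, RARB and RARG had H3K4me2 alone, with an H3K27ac peak in replicate 1 at RARA (5.0) and RARB (3.28), and RXRB had H3K27ac at its start end and H3K27me3 elsewhere.

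**Figure D4:**
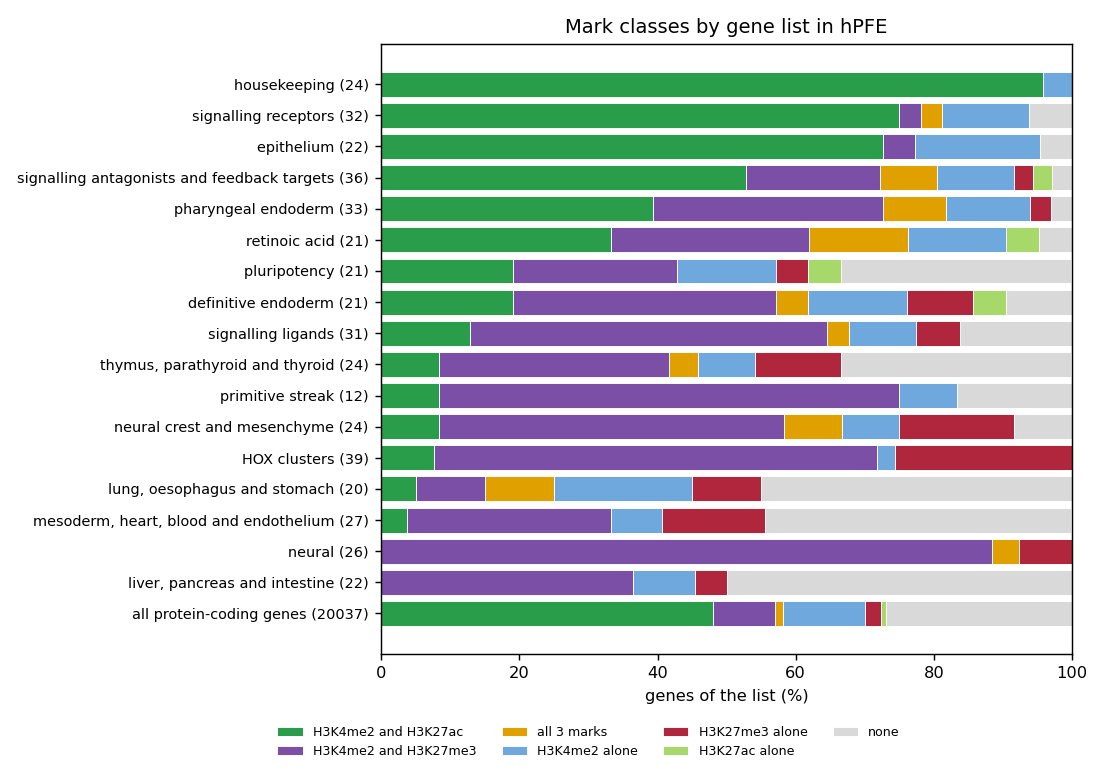
Share of the genes of each list (horizontal axis, percent, number of genes in brackets) in each mark class, sorted by the share with H3K4me2 and H3K27ac, with all protein-coding genes at the bottom. Housekeeping genes are at the top (95.8%) and the neural list has 88.5% with H3K4me2 and H3K27me3; the pharyngeal list has 39.4% and 33.3% in these 2 classes, and the single gene with H3K27ac and H3K27me3 but no H3K4me2 is not drawn.

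The 2 H3K27ac libraries disagreed at 1996 of the 20037 genes (9.96%): 886 had a peak in replicate 1 alone and 1110 in replicate 2 alone. These were 16.6% of the 12059 genes with a peak in either library. For H3K27me3, 1697 genes disagreed, 39.9% of the 4248 genes with a peak in either. The disagreeing H3K27ac peaks were weaker than those at genes with a peak in both libraries. Their median fold was 3.54 in replicate 1 alone, against 6.38 in replicate 1 at the 10063 genes with a peak in both, and 3.14 in replicate 2 alone, against 5.91 in replicate 2 at genes with both. H3K4me2 was present at 81.8% of the genes of replicate 1 alone and 65.3% of those of replicate 2 alone, against 98.5% of genes with H3K27ac in both and 33.7% of genes with it in neither. H3K27me3 was present at 13.2% and 15.5% of the disagreeing genes, against 2.3% of genes with H3K27ac in both and 24.9% of genes with it in neither.

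Among the pharyngeal genes, 8 of 33 disagreed in H3K27ac (24.2%, against 9.96% of all). This share was not particular to the pharyngeal list. It was 23.8% in both the pluripotency and the definitive endoderm list, and 6 of 24 neural crest and mesenchyme genes disagreed. Other lists had lower shares, down to 0.0% in the neural and housekeeping lists. Of the pharyngeal genes, PAX1, PAX9, HOXA3, HOXB1, HOXB3 and RIPPLY3 had a peak in replicate 1 alone, and EYA1 and NKX2-3 in replicate 2 alone. For PAX9 the replicate 1 fold was 7.06 with H3K4me2 at 5.97 and no H3K27me3 peak in either library, so that the class of PAX9 changed with the library used. The replicate 1 peaks of PAX1 (8.84), HOXA3 (8.67) and PAX9 were above the median of 6.38 for genes with H3K27ac in both libraries. Other list genes with a peak in replicate 1 alone included GATA6 (4.72), BMP4 (5.32), SOX9 (5.2), OTX2 (5.07) and FGF20 (6.72). The lists went both ways. In the pluripotency list 4 genes had a peak in replicate 1 alone and 1 in replicate 2 alone. In the neural crest and mesenchyme list these were 1 and 5.

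Outside the lists, the strongest peaks of replicate 1 alone were at CD24, a cell-surface glycoprotein (13.8), TOPAZ1 (12.4) and ARL6 (11.8). Those of replicate 2 alone were at TRAPPC2L, a vesicle tethering subunit (13.1), NDST2, a heparan sulfate enzyme (13.4), and DGAT2, a triglyceride synthesis enzyme, which also had H3K27me3 in both libraries (5.25 and 6.36).

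The genes of best rank in the other classes, by the weakest of their marks, were also named by rule. With H3K4me2 and H3K27ac they included RPL19, a ribosomal protein (H3K27ac 23.6 and 49.4, H3K4me2 9.79), BRPF1, a chromatin reader (18.1 and 49.4, 10.5), and the neighbours LPXN and ZFP91, which share their peaks (H3K27ac 14.7 in replicate 1, H3K4me2 10.4). With H3K4me2 and H3K27me3 they included SFMBT2, itself a Polycomb group protein (H3K27me3 9.21 and 9.75, H3K4me2 8.81), DLX4 (6.56 and 11.3, 11.0, with an H3K27ac peak of 4.29 in replicate 2 alone) and EBF2 (7.79 and 13.3, 9.82). With H3K27me3 alone they included the homeobox gene LBX1 (8.27 and 12.4), BHLHE23 (8.19 and 12.6) and FOXD4 (9.6 and 12.1). With H3K4me2 alone they included LIPG, endothelial lipase (H3K4me2 12.4, with an H3K27ac peak of 4.4 in replicate 2 alone), IGSF3 (11.3) and C2CD4C (11.0). With H3K27ac alone they included TIA1 and DAP3 (14.8 and 17.5, and 13.7 and 42.9), above the class medians of 3.94 and 3.7.

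Away from gene ends the picture was one of H3K4me2 without either modification of lysine 27. Of 59129 distal H3K4me2 regions, 8091 had H3K27ac without H3K27me3 (13.7%), 1950 had H3K27me3 without H3K27ac (3.3%), 49079 had neither (83.0%) and 9 had both (0.0152%). Single libraries gave 11753 to 12806 regions with H3K27ac, 2565 to 2738 with H3K27me3 and 56 to 100 with both. Regions with H3K27ac had a median width of 383 bp and a median H3K4me2 fold of 3.96, those with H3K27me3 352 bp and 3.92, and those with neither 205 bp and 3.21.

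The share with a second mark moved with the strength of H3K4me2 itself. In the quintile of regions with the highest H3K4me2 fold (3.92 to 13.8), 34.7% had H3K27ac and 8.28% had H3K27me3, against 4.97% and 1.28% in the lowest quintile (1.43 to 2.75). Regions with neither were 56.9% of the highest quintile and 93.8% of the lowest. The share with H3K27me3 was highest close to genes: 8.93% of regions within 5 kb of a protein-coding gene end, 4.03% from 5 to 20 kb, 2.04% from 20 to 50 kb, 1.33% from 50 to 100 kb, 1.15% from 100 to 500 kb and 0.368% beyond 500 kb. For H3K27ac the shares were 17.3%, 16.7%, 15.7%, 14.1%, 9.31% and 2.97% over the same distances. The median distance was 5.15 kb for regions with H3K27me3 and 21.6 kb for regions with H3K27ac, against 35.8 kb for all distal regions.

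**Figure D5:**
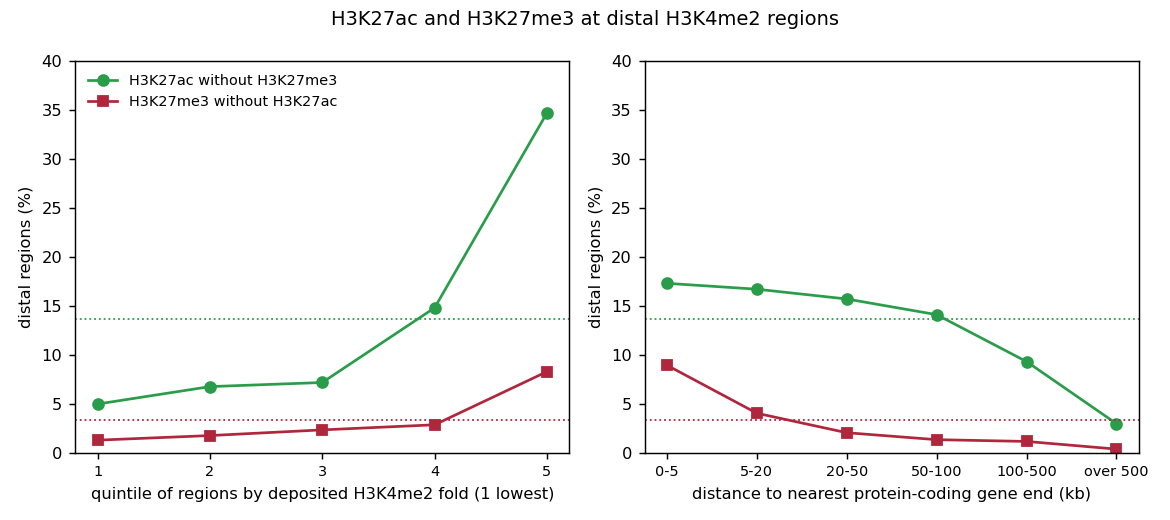
Share of distal H3K4me2 regions (vertical axes, percent) with H3K27ac without H3K27me3 (circles) and with H3K27me3 without H3K27ac (squares), by quintile of the deposited H3K4me2 fold enrichment (left) and by distance in kb to the nearest protein-coding gene end (right); dotted lines are the shares over all 59129 regions, 13.7% and 3.3%. Both shares are highest in the top quintile (34.7% and 8.28%), and the H3K27me3 share is 8.93% within 5 kb and 2.04% at 20 to 50 kb while the H3K27ac share is 17.3% and 15.7% there.

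Marked distal regions often had a nearest gene with the same mark, but most regions near a marked gene did not carry its mark. Of 31140 distal regions whose nearest gene had H3K27ac, 5473 had H3K27ac without H3K27me3. Of 10679 whose nearest gene had H3K27me3, 1246 had H3K27me3 without H3K27ac. Of regions with H3K27me3, 63.9% had a nearest protein-coding gene with H3K27me3 at its ends, against 18.1% of all distal regions. Of regions with H3K27ac, 67.6% had a nearest gene with H3K27ac, against 52.7% of all. Introns and exons were not told apart; 69.5% of regions with H3K27ac and 62.0% of those with H3K27me3 lay inside an annotated gene, against 55.8% of all.

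Around pharyngeal genes, of 458 distal regions for which one of the 33 genes was nearest, 93 had H3K27ac (20.3%, against 13.7% of all), 63 had H3K27me3 (13.8%, against 3.3%), 300 had neither and 2 had both. ISL1 and MEIS2 each had 11 regions with H3K27ac and 0 with H3K27me3, of 27 and 44. PAX9 had 10 of 24 with H3K27ac in both libraries and 0 with H3K27me3, although H3K27ac at its gene ends was in replicate 1 alone. PAX1 had 6 of 26 with H3K27ac and 3 with H3K27me3, and EYA1 had 9 of 23 and 3. SHH had 7 of 18 with H3K27ac and 0 with H3K27me3. TBX1 had 0 of 10 with H3K27ac and 4 with H3K27me3. Regions nearest to 1 gene are not independent, and the nearest gene is not shown to be the one acted on.

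In other lists, none of 139 distal regions nearest to neural genes had H3K27ac and 57 had H3K27me3 (41.0%, against 3.3% of all). Of 46 regions nearest to HOX genes, 26 had H3K27me3 (56.5%), 6 of them among the 11 nearest to HOXA3. Around signalling receptors 45 of 212 had H3K27ac (21.2%, against 13.7% of all) and 0 had H3K27me3 (against 3.3% of all). Around feedback genes 77 of 298 had H3K27ac (25.8%) and 5 had H3K27me3 (1.68%). Housekeeping genes were near the receptors in this, with H3K27ac at 10 of 54 (18.5%) and H3K27me3 at 0. Over all genes, ZNF608, a zinc finger gene, had the most distal regions with H3K27ac (29 of 78). NR2F2 had the most with H3K27me3 (12 of 52) although H3K27ac marked its own ends, followed by MSX1 (11 of 12) and PAX2 (10 of 11).

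Of the 9 distal regions with both marks, the one of best rank lay 1.76 kb from PCDH8, a protocadherin (hg38 chr13:52850398-52852135, H3K27ac 7.46 and 3.34, H3K27me3 4.36 and 6.49). Among distal regions with H3K27me3 without H3K27ac, the best rank lay 2.82 kb from NKX3-2, a homeobox gene (chr4:13543654-13544272, H3K27me3 9.87 and 9.22, H3K4me2 10.2, with an H3K27ac peak of 2.6 in replicate 1 alone), and another was 3.95 kb from GATA2 (chr3:128497149-128497721, 6.02 and 9.69). Among those with H3K27ac, FBXO46 (chr19:45716037-45717219, 5.41 kb, 13.5 and 16.2) and SEPTIN9 (chr17:77451653-77452750, 47.8 kb, 17.3 and 14.3) were within the first 10. The first 2 regions with neither mark by this rank, chr16:34587930-34588352 and chr16:46387807-46388089, had low H3K4me2 folds of 4.27 and 3.12 for their p-values, whereas the next, 54.3 kb from ANP32A (chr15:68875216-68875905), had 11.8. All of these had peaks in single libraries. The first had H3K27ac in replicate 1 (1.4) and H3K27me3 in replicate 2 (1.66). The second had H3K27me3 in replicate 2 (1.55), and the region near ANP32A had H3K27ac in replicate 2 (2.13).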

How the data were processed

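ChIP-seq peaks of 3 histone marks in hPFE cells were analysed. Coordinates are hg38, as the submitters' processing notes name it; aligner and peak caller: not given in the sources used here. Per the names of the deposited lists, duplicates were removed and peaks were called at p 0.01, capped at 500 K, each library against 1 hPFE input. The deposited fold enrichment, a ratio over input made by the authors, and their deposited −log10 p and −log10 q describe peaks within 1 list. No read totals were used, so depth and counting error are unknown.

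Peaks on chromosomes 1 to 22, X and Y were merged per library. Gene ends came from a RefSeq gene table (GRCh38.p14; 59679 genes, 20037 protein-coding), and strand and promoters from a table that matched 15842 of these. A mark was present in a window of 1 kb either side of an end, or in a region, where every library of the mark overlapped by 1 bp. Gene lists held 436 entries, 402 of 403 distinct genes being matched. Members and lists were chosen with earlier results of these data known. Named genes were the 10 per class with the best rank of their weakest mark by deposited p, besides list genes; some of these genes are not reported here. Lists are described by counts beside all genes, with no test; the exact permutation test over libraries was one-sided. Replicates may be technical, so the spread between libraries may be too. The scripts were tested on simulated data. Alternatives changed the peak threshold, list length, overlap, presence rule, window, gene end and distal distance, and left out each replicated library. Python 3.11.15, pandas 2.3.3, NumPy 2.4.6 and matplotlib 3.10.9 were used.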

Additional observations from a re-analysis of the deposited data

Results flagged for a closer look

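Peaks outside chromosomes 1 to 22, X and Y were not classed, and each list held more of them than the 3 counts that a count of 0 allows: 65 in H3K27ac replicate 1, 19 in H3K27ac replicate 2, 168 in H3K27me3 replicate 1, 153 in H3K27me3 replicate 2 and 36 in H3K4me2. They are given as values only.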

How the results depend on the processing

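No paired analysis was possible because the class counts come from no test and the marks, not the samples, are what is combined. Of 146 alternatives, 103 left a count within 1.5 times its value or the Jaccard difference in direction and p, and 43 did not. Genes with H3K4me2 and H3K27ac (9623) stayed between 7944 and 10293 throughout. The Jaccard difference was 0.25 to 0.394 (exact permutation p = 0.0667 in each).

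With peaks of −log10 p 5 or more, genes with H3K4me2 and H3K27me3 numbered 1148 and genes with all 3 marks 96, and distal regions with H3K27ac, H3K27me3, neither and both numbered 2800, 772, 8105 and 3. With −log10 q 2 or more, all 3 marks were at 110 genes, and the distal counts were 3499, 980, 12375 and 3. With 200 bp of overlap, all 3 marks were at 115 genes, with 4424 distal H3K27ac regions and 4 with both. With presence in any library, all 3 marks were at 1262 genes and H3K4me2 alone at 830, and distal H3K27ac, H3K27me3 and both numbered 16422, 3305 and 193. Leaving out genes where libraries disagreed gave 892 with H3K4me2 alone.

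Leaving out 1 library gave 344 (without H3K27ac replicate 2) to 532 (without H3K27me3 replicate 1) genes with all 3 marks, 395 without H3K27ac replicate 1 and 480 without H3K27me3 replicate 2. It gave 8066 to 12831 distal regions with H3K27ac and 18 to 43 with both. All 3 marks were at 84 genes in windows of 500 bp, 592 in windows of 2.5 kb, 64 at the start end only and 3350 over the whole gene, where 3358 genes had none. At start ends only, H3K27ac libraries disagreed at 1320 genes. Beyond 2.5 kb, 1169 distal regions had H3K27me3; beyond 5 kb, 5243 had H3K27ac, 760 H3K27me3 and 4 both. With 0.5 of the region covered, 4485 had H3K27ac and 1 both, and both marks were at 17 regions after joining peaks within 500 bp and at 16 when only protein-coding ends were avoided. Where fewer peaks, genes or regions enter, lower counts follow from the setting; other causes were not tested. Unknown depth and a single H3K4me2 library limit every class.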

Other observations

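Gene families were grouped by symbol after the values were seen and are given without a test. H3K4me2 with H3K27ac, found at 48.0% of all protein-coding genes, was found at 28 of 28 MRPS genes of the small mitochondrial ribosomal subunit. It was also found at 34 of 35 VPS genes of vesicle sorting. Of genes grouped under the letters RPL and RPS, 49 of 52 and 41 of 45 had it. These letters name proteins of the cytosolic ribosome, but not every gene grouped under them encodes one. H3K4me2 with H3K27me3, found at 9.08% of all, was found at 18 of 44 COL genes, the collagens, of which 11 had H3K4me2 with H3K27ac and 12 had none. It was found at 7 of 22 FGF genes, of which 6 had H3K4me2 alone and 5 had none. No mark, as at 26.9% of all, was found at 367 of 392 OR genes, the odorant receptors, 89 of 94 KRTAP genes, the keratin-associated proteins of hair, and 23 of 23 PRAMEF genes. Family members can be neighbours or near-identical copies, in which reads may not be placed.

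In the classes given here, genes had a neighbour of their own class more often than the other genes had a neighbour of that class. A majority did so only for H3K4me2 with H3K27ac and for genes with none. Of genes with H3K4me2 and H3K27me3, 34.1% had a neighbouring gene of the same class, and 15.2% of the other genes were next to such a gene. For H3K27me3 alone the shares were 22.8% and 4.04%, and for genes with none 66.4% and 33.0%. They were 83.8% and 57.1% for H3K4me2 and H3K27ac, and 31.5% and 20.9% for H3K4me2 alone. All 3 marks had 14.6% and 2.09%, and H3K27ac alone had 7.19% and 1.35%. Neighbours can share a peak, and no test was made.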
